A study of Mus musculus with 4 samples.

Results

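To ask how microglia of a brain with amyloid pathology differ from microglia of a WT brain when both have met the same TREM2-activating antibody, 4 AppSAA;TfRmu/hu mice were compared with 4 WT;TfRmu/hu mice, all given ATV:4D9. These 8 mice, of 20 in the series, were chosen by the genotype and antibody recorded for each cell in the deposited annotation. AppSAA mice carry a humanised and mutated amyloid-β segment in their own App gene, so that the gene's own promoter drives it, and WT mice carry the unmodified gene. Both genotypes carry TfRmu/hu, a transferrin receptor with the human apical domain, without which the vehicle has nothing to bind. ATV:4D9 is 4D9, an antibody to mouse TREM2, on an antibody transport vehicle that uses the transferrin receptor to cross the blood-brain barrier. Each mouse received a single intravenous dose of 10 mg kg−1, and live CD11b+ brain cells were sorted 24 h later. A further 8 mice of the same genotypes had received ATV:ISO, the vehicle on an isotype control, and gave the genotype contrast in other animals. Each of 4 pools, prepared and sequenced together, held 1 mouse of every group, and all 8 mice given ATV:4D9 were recorded as male. For male AppSAA;TfRmu/hu mice an age of 8 months is listed in the reporting summary. The wording of that entry leaves unclear whether the WT mice compared here were of that age. WT;TfRmu/hu mice of the whole study are listed there as younger mice up to 8 months. Whether the genotypes differed in age is therefore not known here.

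Microglia are the resident macrophages of the brain. TREM2 is a microglial surface receptor for lipids and lipoproteins that signals through the adaptor TYROBP, and microglia around amyloid plaques use it to leave their homeostatic state and to turn on genes of lipid handling, lysosomes and antigen presentation. Interferon-stimulated genes and genes of the cell cycle mark other microglial states that are often seen beside this plaque-associated one.

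The 8 mice gave 32400 of the 74758 cells, 16458 from AppSAA and 15942 from WT mice. The number of cells per mouse was 2413 to 5676 in AppSAA and 2971 to 4512 in WT mice, and unique molecular identifiers (UMIs, each a counted transcript) summed to 41315872 to 102446549 and to 52185283 to 79396175. The median UMI number per cell was 15523 ± 1335 in AppSAA and 15338 ± 1625 in WT mice (SD, n = 4 each, a difference of 184 UMIs). The median number of genes per cell was 3857 ± 186 against 4071 ± 234, lower in AppSAA mice in 4 of 4 pools. A two-sided exact permutation test that ignored the pools gave p = 0.257, where 0.0286 is the smallest p that 4 against 4 allows. That p does not measure the difference within pools. The median mitochondrial share was 1.59% ± 0.456 against 1.54% ± 0.361 (the same exact permutation test, p = 0.914). The adjusted p was 0.914 for each of the 5 measures tested. Microglial markers were high and alike in summed level, at 28572 to 32320 CPM (counts scaled to a common library size) in AppSAA and 27877 to 32956 CPM in WT mice over 14 genes, of which 3 were called higher and 5 lower. Border macrophage markers summed to 97.4 to 135 against 113 to 149 CPM, neuron markers to 2.2 to 3.2 against 2.7 to 2.9 CPM, and astrocyte markers to 76.4 to 106 against 66.4 to 76.5 CPM. Oligodendrocyte markers summed to 95.2 to 120 against 77.7 to 89.6 CPM and so stood apart, endothelial and mural markers to 634 to 835 against 569 to 801 CPM, and monocyte markers to 76.2 to 142 against 72.3 to 137 CPM. Neutrophil markers summed to 103 to 163 against 101 to 132 CPM, and lymphocyte markers to 18 to 22 against 17.2 to 26.3 CPM, with 1 of 14 members at 0 in all 8 mice. Of these marker lists, 3 of 9 tested astrocyte, 3 of 9 oligodendrocyte, 3 of 10 border macrophage and 3 of 8 monocyte genes were called higher in AppSAA mice. So were 3 of 7 endothelial and mural, 1 of 8 neutrophil, 1 of 2 lymphocyte and 0 of 4 neuron genes. Called lower were 2 neutrophil, 1 border macrophage and 1 endothelial and mural gene. Over all genes tested, the background for these and the microglial counts, 17% were called higher and 14.4% lower. The part of these cells in any result was not tested. One haemoglobin transcript, Hbb-bs, stood at 282 CPM in AppSAA replicate 3 and at 0.637 CPM or less in the other 7 mice, so results are also given without that mouse where it matters.

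Over whole mice, AppSAA microglia given ATV:4D9 differed from WT microglia given ATV:4D9 in 4409 of 14058 genes tested (edgeR quasi-likelihood test on summed UMIs with pool as a block, adjusted p under 0.05, which is what "called" means below). Of all genes tested, 2388 (17%) rose and 2021 (14.4%) fell in AppSAA mice, and of these 424 and 32 changed more than 2-fold. The 4 AppSAA mice lay above all 4 WT mice in 8.72% of the genes and below all of them in 6.18%. Without pool 3 the count was 2588, and with the mice unpaired it was 1661. The median log2 fold change over all genes was −0.01 with scaling by the trimmed mean of M values (TMM). With library totals alone it was −0.15 and 1320 of 7194 called genes were higher, 18.3% against 54.2% with TMM. With the mean of per-cell CPM it was −0.12 with 18.9% higher, so small list medians below rest on the scaling. On library totals 5874 of all 14058 genes were called lower and with per-cell CPM 5529, the background for lower list members there. All levels given here are TMM-scaled CPM. In sums over whole mice, fewer cells of a type and less RNA per cell cannot be told apart.

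**Figure D1:**
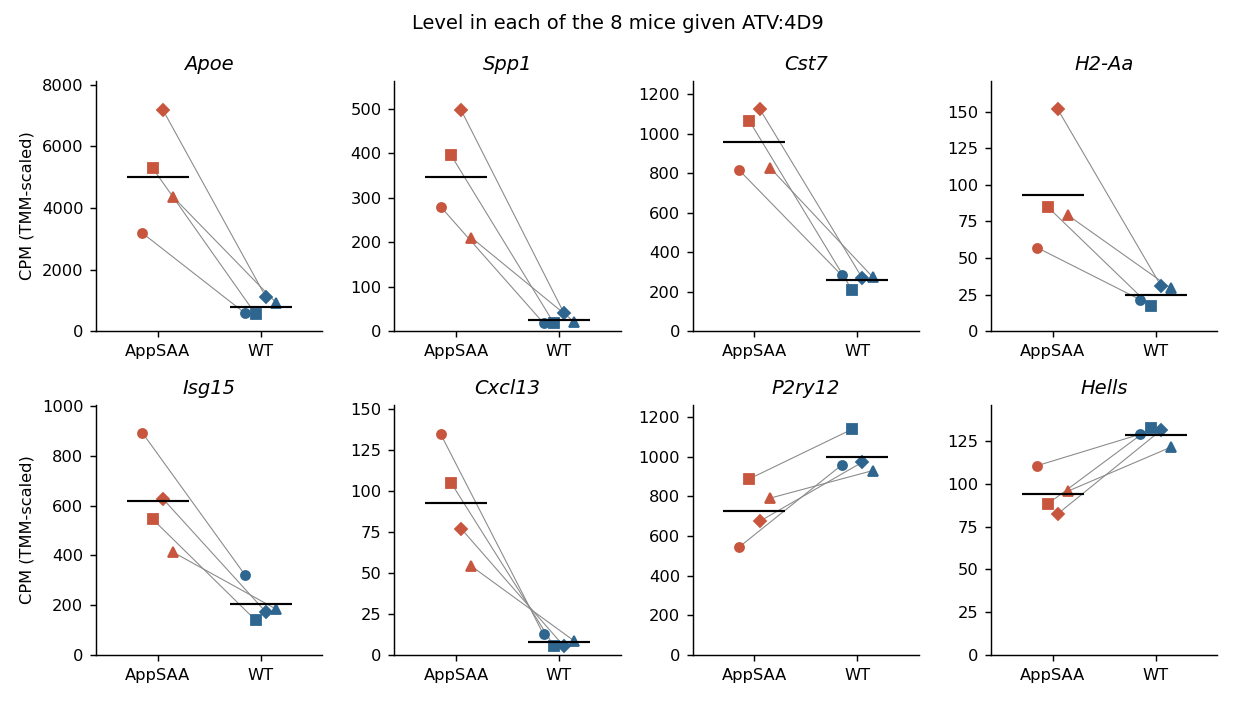
TMM-scaled CPM (vertical axes, linear, from 0) of 8 genes in the 4 AppSAA and the 4 WT mice given ATV:4D9. Symbols mark the 4 pools, grey lines join the mice of a pool and black bars are group means. Apoe, Spp1, Cst7, H2-Aa, Isg15 and Cxcl13 were higher in every AppSAA mouse than in any WT mouse, and P2ry12 and Hells were lower.

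Genes of the plaque-associated state were higher in AppSAA mice, among them lipid carriers and secreted products of lipid-laden cells. Of 26 genes in a core plaque-response list, 24 rose and none fell (median log2 fold change 0.67), and 21 did not overlap between the genotypes. Of 20 genes in a late plaque-response list, 18 rose and none fell (median 1.91), and 15 did not overlap. Over all genes 17% rose and 8.72% lay apart with AppSAA mice above. With each mouse's sums rebuilt at equal composition of the deposited clusters, without TMM, 17 core genes were called higher and 2 lower (median 0.29). Of the late genes 13 were called higher (median 0.44). Equal medians as well gave the same counts higher, none lower, and medians of 0.38 and 0.52. Apoe, the main apolipoprotein of the brain (chr7:19696244-19701310, GRCm38.p6), was 3188, 5298, 7186 and 4355 CPM in AppSAA replicates 1 to 4. It was 578, 559, 1112 and 925 CPM in WT replicates 1 to 4. The lowest AppSAA mouse stood well above the highest WT mouse, and the means were 5007 ± 1690 and 794 ± 271 CPM (SD, n = 4 each; log2 fold change 2.64, SE 0.20, adjusted p = 4.8e-08).

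Spp1, which encodes the secreted matrix protein osteopontin (chr5:104435111-104441053), was 280, 397, 497 and 210 CPM against 18.3, 18.2, 39.9 and 20.6 CPM (log2 fold change 3.78, SE 0.56, adjusted p = 5.7e-05). Gpnmb, a glycoprotein of lysosomes in lipid-loaded macrophages, was 19.6, 55.0, 86.4 and 30.3 CPM against 1.28, 1.57, 6.59 and 2.81 CPM (3.92, SE 0.36, adjusted p = 2.6e-07). In both genes pool 3 held the highest mouse of each genotype, and no WT mouse reached an AppSAA mouse. The growth factor Igf1 rose by 3.65 (22 to 69.3 against 1.84 to 5.18 CPM), the fatty acid binding protein Fabp5 by 3.49 (73.9 to 212 against 7.41 to 17.4 CPM), and its relative Fabp3 by 2.61 (20.8 to 35.4 against 2.80 to 5.14 CPM). Atp6v0d2, a proton pump subunit, rose by 3.43 from a low level (1.14 to 6.28 against 0.131 to 0.509 CPM), but was at −0.16 and not called at equal cluster composition. Among other steep rises, the early activation antigen Cd69 rose by 2.43 and the sulfotransferase Chst2 by 2.34. Klrb1c, a receptor of natural killer cells in the lymphocyte list, rose by 1.99 at 0.173 to 0.447 against 0.0437 to 0.0978 CPM. It was at −0.0128 and not called at equal cluster composition. The 1 CPM added in that setting shrinks differences of genes as low as Klrb1c and Atp6v0d2.

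Cst7, an inhibitor of lysosomal proteases (chr2:150570415-150578944), was 816, 1066, 1127 and 829 CPM in AppSAA mice and 282, 207, 267 and 274 CPM in WT mice, with no overlap (1.88, SE 0.11, adjusted p = 4.8e-09). The TAM receptor Axl rose by 2.17, the pattern receptor Clec7a by 1.65 and the integrin Itgax by 1.32, each without overlap. Lipoprotein lipase, Lpl, was 403, 246, 316 and 311 CPM against 185, 199, 208 and 251 CPM, so that AppSAA replicate 2 lay just below WT replicate 4 (0.61, SE 0.18, adjusted p = 0.015). Trem2 itself was 2733, 3203, 2869 and 2675 CPM against 2651, 2413, 2156 and 2247 CPM. The groups stood apart by a narrow margin (0.28, SE 0.06, adjusted p = 0.0012). With the mice unpaired adjusted p was 0.061, and at equal cluster composition the log2 fold change was −0.00166 and not called. Its adaptor Tyrobp rose by 0.56 and lay apart. Over 23 tested genes of TREM2 signalling 5 rose and 4 fell, close to the 17% and 14.4% of all genes, and 4 and 14 did on library totals and 3 and 0 with the mice unpaired. They included Treml2, a relative of Trem2 (1.58), and the kinase subunit Pik3cg (−0.18). The 2 core members that were not called were the adhesion molecule Cadm1 (−0.00) and the lysosomal glycoprotein Cd68 (0.05), and the 2 late members were Cd5l (−0.21) and Mmp12 (0.21).

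Homeostatic genes moved less. Of 19, 8 fell and none rose (median −0.13), and 6 lay apart, against backgrounds of 14.4% and 6.18% of all genes. On library totals and with per-cell CPM 17 were called lower, where 5874 and 5529 of all 14058 genes were. The purinergic receptor P2ry12 (chr3:59216271-59262985) was 543, 887, 673 and 790 CPM in AppSAA and 958, 1138, 972 and 930 CPM in WT mice, so the groups did not overlap (−0.47, SE 0.10, adjusted p = 0.0012). Tmem119 fell by 0.27 without overlap. The fractalkine receptor Cx3cr1 was 2244 to 2924 against 2264 to 3081 CPM and was not called (−0.08, adjusted p = 0.21). The 10 steepest falls without overlap at 10 CPM or more ran from −0.81 to −0.63, far shallower than the rises. They included the adaptor Bank1 (−0.81), the interleukin receptor Il7r (−0.73), the iron exporter Slc40a1 (−0.66), the GTPases Gimap6 (−0.67) and Gimap9 (−0.63), and the crystallin Crybb1 (−0.63). The other 4 were Klhl23 (−0.70), 4930503L19Rik (−0.69), Tspan18 (−0.68) and Slco4a1 (−0.67).

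Antigen presentation genes of both classes were higher. All 17 MHC class I genes rose (median 0.80) and 13 lay apart. Of 9 MHC class II genes 7 rose (median 0.89) with all 7 apart. Backgrounds were 17% for rises and 8.72% for genes apart. At equal cluster composition the medians were 0.41 and 0.50, with 16 and 5 called. The class II chain H2-Aa (chr17:34282744-34287823) was 57.0, 85.0, 151 and 79.1 CPM in AppSAA and 21.5, 17.1, 31.2 and 29.3 CPM in WT mice. Every AppSAA mouse stood above every WT mouse, and the spread was widest in AppSAA mice (1.85, SE 0.24, adjusted p = 1.1e-05). The invariant chain Cd74 rose by 1.43, whereas Ciita, the transactivator of class II genes, was 0.188 to 0.662 against 0.0874 to 0.477 CPM and was not called (0.73, adjusted p = 0.095). In class I, the steepest rises were in H2-Q6 (2.22) and H2-Q7 (2.09), near-identical paralogues between which reads may be split, and the light chain B2m rose by 0.77 and the transactivator Nlrc5 by 1.27.

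Interferon-stimulated genes were higher in AppSAA mice without exception. All 36 tested rose, from 0.56 for Irf9 to 2.79 for Ifi27l2a (median 1.58), against a background of 17% over all genes, and 35 of 36 lay apart against a background of 8.72%. Summed over the list, AppSAA replicates 1 to 4 held 11924, 8064, 9161 and 7323 CPM and WT replicates 4819, 2861, 3461 and 3700 CPM. Isg15, a ubiquitin-like protein (chr4:156199424-156200818), was 893, 546, 627 and 412 CPM against 320, 140, 172 and 184 CPM. In both genotypes the mouse in pool 1 was highest, and the groups did not overlap (1.62, SE 0.15, adjusted p = 4e-07). The RNA-binding Ifit3 rose by 1.62, but was at 0.0906 and not called at equal cluster composition (adjusted p = 0.29). The oligoadenylate synthetase Oas3 rose by 2.40 and the transcription factor Irf7 by 1.72. The list had 36 called genes on library totals, with per-cell CPM and with the mice unpaired, but 27 at equal cluster composition (median 0.41).

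Promoters of this list are shown because an interferon-stimulated response element is the textbook binding site of the factors that drive such genes, and the letters let a reader see how alike they are. In 300-base RefSeq windows (250 bases before to 50 after a start, GRCm38.p6, 10494 of 14058 tested genes matched), a pair of GAAA runs with any 2 bases between them occurred on either strand in 18 of 34 windows of the list (52.9%), in 17 of 27 genes, and in 432 of all 13345 windows (3.24%). They occurred in 4 of 17 MHC class I windows and in 0 of 40 windows of the DNA replication list. A match is a run of letters and not a shown binding site. In 40-base stretches upstream of the start, on the gene's strand and with 1 match of each in capitals, Ifit1 is at chr19:34640789-34640828 (plus), Isg15 at chr4:156200860-156200899 (minus), Stat2 at chr10:128270261-128270300 (plus), Oas3 at chr5:120777710-120777749 (minus), Rsad2 at chr12:26456548-26456587 (minus) and Gbp2 at chr3:142620589-142620628 (plus).
Ifit1: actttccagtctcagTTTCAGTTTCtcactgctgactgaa
Isg15: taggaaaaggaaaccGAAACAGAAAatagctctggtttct
Stat2: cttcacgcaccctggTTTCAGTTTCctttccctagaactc
Oas3: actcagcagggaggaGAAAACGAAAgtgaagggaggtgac
Rsad2: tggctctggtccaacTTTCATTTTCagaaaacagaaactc
Gbp2: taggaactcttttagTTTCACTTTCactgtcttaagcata
Ifit1, Stat2 and Gbp2 hold the letters on the strand opposite to the gene, as does Rsad2, and Isg15 and Oas3 hold them on the gene's own strand. The Isg15 stretch holds 2 further matches, left in lower case, just before the one in capitals and in part overlapping it. These 6 genes rose by 1.71, 1.29, 1.57, 1.59, 1.62 and 2.40 in the order Ifit1, Stat2, Gbp2, Rsad2, Isg15 and Oas3.

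**Figure D2:**
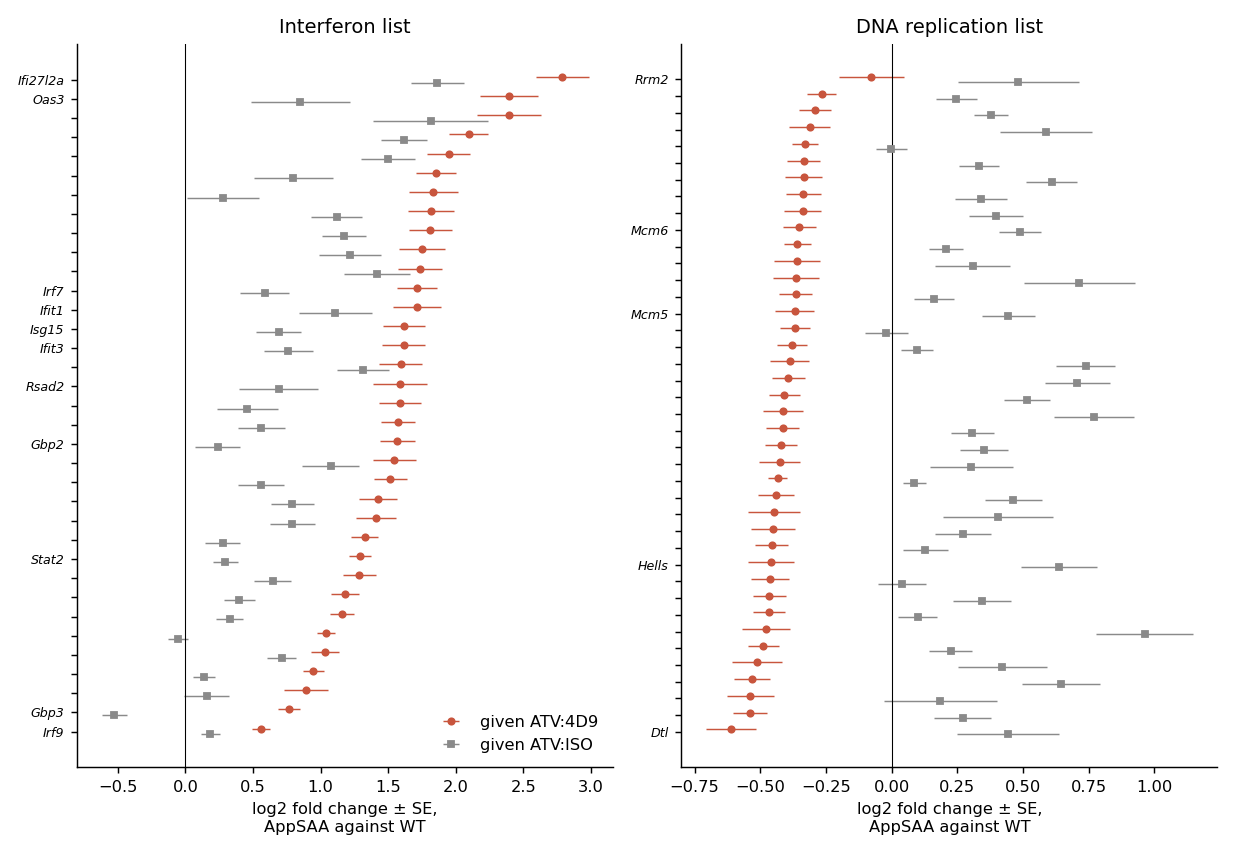
Log2 fold change of AppSAA against WT (horizontal axes, edgeR, bars are SE) of 35 interferon genes (left) and 40 DNA replication genes (right), with the genes named in the text labelled, in mice given ATV:4D9 (red) and mice given ATV:ISO (grey). All interferon genes drawn lay right of 0 under ATV:4D9. Under ATV:4D9 39 of 40 replication genes were called lower, and under ATV:ISO 26 were called higher.

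Chemokines and cytokines rose in part. Of 22 chemokine genes 15 rose and 1 fell (median 0.68). Of 32 genes of cytokines and NF-κB 22 rose and none fell (median 0.38), while 17% of all genes rose and 14.4% fell. At equal cluster composition 7 chemokine genes were called higher and 2 lower (median 0.19) and 7 cytokine genes higher and 1 lower (median 0.11), and with the mice unpaired 13 cytokine genes were called higher. Cxcl13, the B cell attractant (chr5:95956939-95961068), was 135, 105, 77.0 and 54.1 CPM in AppSAA and 12.5, 5.53, 5.13 and 8.40 CPM in WT mice. The lowest AppSAA mouse stood far above the highest WT mouse (3.52, SE 0.29, adjusted p = 7.7e-08). The T cell attractant Cxcl11 rose by 1.63 and the monocyte attractant Ccl2 by 0.91, both without overlap. Ccl3 and Ccl4 rose by 0.43 and 0.36 with overlap. Over 24 other settings Ccl3 and Ccl4 went down to 0.0806 and 0.0563, and neither was called throughout. Tnf was 510 to 1039 against 525 to 908 CPM and was not called (0.17, adjusted p = 0.41), whereas Il1b rose by 0.82 and the interleukin-1 antagonist Il1rn by 1.90. Of 22 immediate early genes, which cell handling can raise, only the phosphatase gene Dusp1 was called (0.30, adjusted p = 0.049), and the list's median was 0.11 with TMM and −0.03 with library totals.

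DNA replication genes were lower in AppSAA mice as a nearly complete set. Of 40, 39 fell and none rose (median −0.41, background 14.4%), although only 17 lay apart (background 6.18%). The list summed to 3456, 2690, 2460 and 2939 CPM in AppSAA and to 4093, 3547, 3805 and 3633 CPM in WT replicates 1 to 4. Hells, a chromatin remodeller of replicating cells (chr19:38930262-38970470), was 111, 88.1, 82.5 and 95.7 CPM against 129, 133, 131 and 121 CPM, without overlap (−0.46, SE 0.09, adjusted p = 0.00061). Dtl, a ubiquitin ligase adaptor of S phase, fell by 0.61, and the helicase subunit Mcm5 by 0.37 with overlap (adjusted p = 0.001, and 0.050 with the mice unpaired). The ribonucleotide reductase subunit Rrm2 was the member not called (−0.08). With the mice unpaired 24 members were called lower.

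Of 40 mitosis genes, 1 rose and 7 fell (median −0.14), a share of falls near the 14.4% of all genes. The proliferation marker Mki67 was 92.6, 107, 102 and 115 CPM against 126, 106, 134 and 125 CPM, and Top2a was 118 to 158 against 139 to 179 CPM. Both overlapped between the genotypes and were not called (−0.24, adjusted p = 0.27, and −0.20, adjusted p = 0.32). The spindle protein gene Ckap2l fell by 0.47, and the centromeric histone Cenpa rose by 0.52. The count of 7 lower was unsteady, and at equal cluster composition the direction turned, with 29 higher and none lower (median 0.29). The count of lower genes was 13 on library totals and 23 with per-cell CPM, where 5874 and 5529 of all 14058 genes were called lower. It was 24 in cells of 1000 to 25000 UMIs and 3 without pool 3. Leaving out AppSAA replicate 3, WT replicate 1 or WT replicate 3 gave 4.

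Promoters of 2 replication genes are shown as the counterpart of the interferon stretches, since factors of the E2F family drive S phase genes. The letters TTTGGCGC or TTTCCCGC occurred on either strand in 12 of 40 windows of the replication list (30%), in 1 of 34 windows of the interferon list, in 0 of 35 mitosis windows and in 387 of all 13345 windows (2.90%). They also occurred in 2 of 17 MHC class I windows (11.8%). In 38-base stretches with the match in capitals, Mcm5 is at chr8:75109345-75109382 (plus) and Mcm6, another helicase subunit, at chr1:128359730-128359767 (minus).
Mcm5: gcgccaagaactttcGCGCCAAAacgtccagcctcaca
Mcm6: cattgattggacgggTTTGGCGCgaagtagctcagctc
Mcm5 holds the letters on the strand opposite to the gene and Mcm6 on its own strand, and the genes fell by 0.37 and 0.35.

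Metabolic lists were called in part. With the mice unpaired the higher calls were 2 in glycolysis, 7 in sterol synthesis, 1 in nuclear and 0 in mitochondrially encoded genes of oxidative phosphorylation. Glycolysis had 8 of 20 genes higher (median 0.22), among them the glucose transporter Slc2a1 (0.48), while Ldha was 469 to 835 against 410 to 654 CPM and was not called (0.22, adjusted p = 0.076). Sterol synthesis had 12 of 23 higher and 1 lower (median 0.21), with Hmgcs1 at 0.40 and Ebp at −0.10. Over 24 other settings Hmgcs1 and Ebp came as near 0 as 0.0141 and −0.0225, and neither was called throughout. Nuclear genes of oxidative phosphorylation had 8 of 41 higher, near the 17% of all genes (median 0.06), led by Ndufa1 (0.55). On library totals 3 of them were higher and 18 lower (median −0.08), and 5874 of all 14058 genes were called lower. Mitochondrially encoded genes had 5 of 13 higher (median 0.14, but −0.00 with library totals), led by mt-Nd6 (0.28). Lipid transport had 14 of 24 higher and 2 lower (median 0.53, but 9 and 3 with a median of 0.06 at equal cluster composition), the lower ones the phospholipid enzyme Lpcat3 (−0.24) and the ubiquitin ligase Mylip (−0.20). The lysosome list had 29 of 39 higher and 1 lower (median 0.24), with 17 higher on library totals, 19 without pool 3 and 15 with the mice unpaired. At equal cluster composition it had 3 higher and 3 lower, with a median of −0.01 (0.07 with all genes' medians set equal as well). Genes of the MYC and nucleolar list had 1 higher, the polyamine enzyme Odc1 (0.30), and 5 lower of 32, near the 14.4% of all genes, with 18 lower on library totals and 0 with the mice unpaired. Myc was 31.7 to 35.8 against 40.3 to 44.0 CPM without overlap (−0.33, adjusted p = 0.018).

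Complement and Fc receptor genes had 13 of 18 higher and none lower (median 0.22, backgrounds 17% and 14.4%), led by C3 (2.13). C1qa rose by 0.21. The higher calls were 7 with the mice unpaired, 8 without pool 3, 8 with 3 lower on library totals and 5 with 2 lower at equal cluster composition. Scavenger and TAM receptors had 7 higher and 5 lower of 21 (5 and 8 on library totals), with Colec12 at 2.64 and Stab1 at −0.32. Iron genes had 6 higher and 3 lower of 15 (5 and 6 on library totals, where 5874 of all 14058 genes were called lower). The ferritin chain Fth1 rose by 0.66 and the haem oxygenase Hmox1 by 0.78, and the transferrin receptor Tfrc, the vehicle's own target, was 25.4, 16.6, 24.8 and 25.5 against 22.2, 20.8, 26.3 and 29.5 CPM and was not called (−0.10, adjusted p = 0.41). Genes of endoplasmic reticulum stress had 2 higher and 4 lower of 28, near the 14.4% of all genes (1 and 17 on library totals, 1 and 0 with the mice unpaired), with Ddit3 at 0.48 and the serine synthesis enzyme Phgdh at −0.30. Alzheimer's disease risk genes had 7 higher and 3 lower of 25 (median 0.03, with 5 higher, 12 lower and a median of −0.11 on library totals). App was 156, 143, 151 and 140 CPM against 136, 132, 126 and 123 CPM, without overlap (0.19, SE 0.03, adjusted p = 0.00017, and 0.058 with the mice unpaired). Over 24 other settings App went down to 0.0197, and it was not called throughout. Reads from the 3′ end cannot separate the knock-in from the WT allele. The secretase Adam10 fell by 0.16 in the same comparison, with overlap.

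Among members of the marker lists, Fn1 (2.33), Folr2 (1.02), Gfap (0.80), the proteoglycan Cspg4 (2.30), the receptor Flt1 (2.69), Csf3r (0.32) and the leukocyte antigen Ptprc (0.22) were called higher, and S100a9 (−0.81) and Pecam1 (−0.61) lower. Of these, Gfap, a defining astrocyte gene, was 0.331 to 0.867 against 0.225 to 0.350 CPM and Folr2 2.20 to 2.91 against 0.914 to 1.56 CPM. Csf3r, a granulocyte receptor, and Ptprc were more abundant, at 96.8 to 144 against 86.7 to 108 CPM and 300.1 to 351 against 251 to 296 CPM. Over 24 other settings Csf3r and Ptprc went down to 0.0381 and 0.0359, and neither was called throughout. Nor were Fn1, Gfap and S100a9 called in every setting.

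The same genotype contrast in mice given ATV:ISO gave the genotype difference in animals that had not received ATV:4D9. It called 3026 genes higher (21.5%) and 4140 lower (29.4%) in AppSAA mice, with 735 and 115 over 2-fold, and 42.2% of its calls were higher (19.9% on library totals and 21.1% with per-cell CPM). The 2 contrasts share no mice, only pools and one fit. Of the genes called under ATV:4D9, 55.6% were called in the same direction under ATV:ISO, which is 34.2% of those called under ATV:ISO. A test of the difference itself, the genotype by antibody interaction, called 2377 genes with a genotype difference that was more positive under ATV:4D9 (16.9%) and 1907 with one that was more negative (13.6%). The total was 2283 without pool 3, 2342 without pool 4 and 1285 with the mice unpaired, and 55.5% of its calls were positive (39.2% without pool 3 and 44.6% with per-cell CPM). One WT mouse given ATV:ISO, in pool 4, was recorded as female and held 42311 Xist UMIs. Without it the interaction called 1976 and 1751 genes, and the Xist interaction went from 6.86 to −0.08.

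Plaque-response genes differed by genotype under both antibodies, and as sampled mostly by less under ATV:4D9. Of the 26 core genes, 26 rose under ATV:ISO (median 1.45) and 21 had a negative interaction. Of the late genes, 18 of 20 rose under ATV:ISO (median 2.86) and 9 had a negative interaction. Over all genes 21.5% rose under ATV:ISO and 13.6% had a negative interaction. At equal cluster composition, with shares averaged within each contrast, 17 core genes were higher under ATV:ISO (median 0.27) and 4 late genes (0.17). Under ATV:4D9 the medians there were 0.29 and 0.44. They rest on another mix of clusters and cannot be ranked against those under ATV:ISO. With shares averaged over all 16 mice, the core median interaction was −0.16, with 0 positive and 2 negative calls. The late median was −0.01 with none called, and that of all genes was −0.02. Apoe differed by 2.51 under ATV:ISO and 2.64 under ATV:4D9 (interaction 0.13, adjusted p = 0.76). Cst7 differed by 4.00 and 1.88 (interaction −2.11, SE 0.15, adjusted p = 5.8e-08), with levels under ATV:ISO of 1658, 1898, 1566 and 1328 CPM in AppSAA and 99.1, 99.6, 108 and 96.0 CPM in WT mice. All 4 WT mice given ATV:4D9 stood above the WT mice given ATV:ISO, and all 4 AppSAA mice given ATV:4D9 stood below the AppSAA mice given ATV:ISO. Lpl levels had the same order, at 475, 570, 513 and 471 against 42.7, 93.9, 56.6 and 43.8 CPM under ATV:ISO (interaction −2.50, SE 0.26, adjusted p = 2.8e-06). Etl4 (−2.50), Baiap2l2 (−2.25) and the serine synthesis enzyme Psat1 (−2.05) were the other steep negative interactions. Psat1 was 66.0 to 84.3 against 15.7 to 19.0 CPM under ATV:ISO and 70.8 to 83.0 against 62.4 to 82.6 CPM under ATV:4D9, where the genotypes overlapped.

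Interferon genes had the opposite pattern. All 36 fold changes were larger under ATV:4D9, and 26 of 36 had a positive interaction and none a negative one (background 16.9% positive). Under ATV:ISO 26 were called higher (median 0.69) and 1 lower, the guanylate-binding protein Gbp3 (−0.53). At equal cluster composition 1 was called higher under ATV:ISO and none lower (median 0.06). Positive interactions were 21 without the mouse recorded as female, 15 without pool 3, 13 with the mice unpaired and 12 at equal cluster composition. The median interaction was 0.80 as sampled and 0.56 at equal cluster composition, where 74 of all 14058 genes were called. Isg15 was 54.4, 53.1, 56.1 and 45.5 against 38.7, 26.0, 34.7 and 32.0 CPM under ATV:ISO (log2 fold change 0.69), so its genotype difference was larger under ATV:4D9 (interaction 0.93, SE 0.22, adjusted p = 0.0044). Cxcl13 differed by 0.95 under ATV:ISO (interaction 2.56, SE 0.47, adjusted p = 0.00052) and Cxcl11 by −0.17, which was not called (interaction 1.80, adjusted p = 0.0015). Other positive interactions were in the heat shock gene Hspa1b (1.97) and in Tcp11l2 (1.57). MHC class I had 8 of 17 positive interactions (5 without pool 3 and 3 unpaired), and class II 6 of 9 negative ones (2 and 1).

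Replication genes were called in opposite directions under the 2 antibodies. Under ATV:ISO 26 of 40 were called higher and none lower in AppSAA mice (median 0.35), the same 26 genes were called lower under ATV:4D9, and 39 of 40 had a negative interaction. The higher calls under ATV:ISO were 17 with the mice unpaired, 13 with 1 lower on library totals (median 0.16), 10 with 1 lower with per-cell CPM (median 0.09) and 0 at equal cluster composition (median 0.03). Hells was 6.39, 5.27, 5.88 and 6.09 against 4.10, 2.56, 3.94 and 4.50 CPM under ATV:ISO (0.64), far under its 82.5 to 133 CPM in the 8 mice given ATV:4D9 (interaction −1.10, SE 0.17, adjusted p = 0.00012). Of the mitosis genes 38 of 40 rose under ATV:ISO (median 0.78, background 21.5%) and 33 had a negative interaction (background 13.6%). The higher mitosis calls under ATV:ISO were 27 on library totals (median 0.60), 24 with per-cell CPM (0.33) and 0 at equal cluster composition (0.02). Glycolysis (14 of 20), sterol synthesis (17 of 23) and mitochondrially encoded genes (13 of 13) also had negative interactions, in 8, 12 and 1 genes with the mice unpaired and in 11, 10 and 10 with per-cell CPM. Homeostatic genes had 17 of 19 lower under ATV:ISO (median −0.42, background 29.4%) and 11 of 19 positive interactions (background 16.9%). An example was Cx3cr1, at −0.46 under ATV:ISO and −0.08 under ATV:4D9 (edgeR interaction 0.38, SE 0.07, adjusted p = 0.00039). Lower calls under ATV:ISO were 19 on library totals and with per-cell CPM and 14 with the mice unpaired. At equal cluster composition they were 7 (median −0.14), and 3 with equal medians as well. Positive homeostatic interactions were 4 without pool 3, 3 with per-cell CPM and 2 with the mice unpaired. At equal cluster composition the interaction was called in only 74 of all 14058 genes. It was called in 0 replication, mitosis, homeostatic, glycolysis, sterol, mitochondrially encoded, late plaque-response and MHC class II genes. It was called in 2 core plaque-response genes, negative in each, and in 1 MHC class I gene, positive. The class I list had a median of 0.30 against 0.36 as sampled. WT mice given ATV:ISO had only 6 to 13 cells each in deposited cluster 4 and 11 to 31 in cluster 5. With so few calls and cells, absent calls there do not show that an interaction went.

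**Figure D3:**
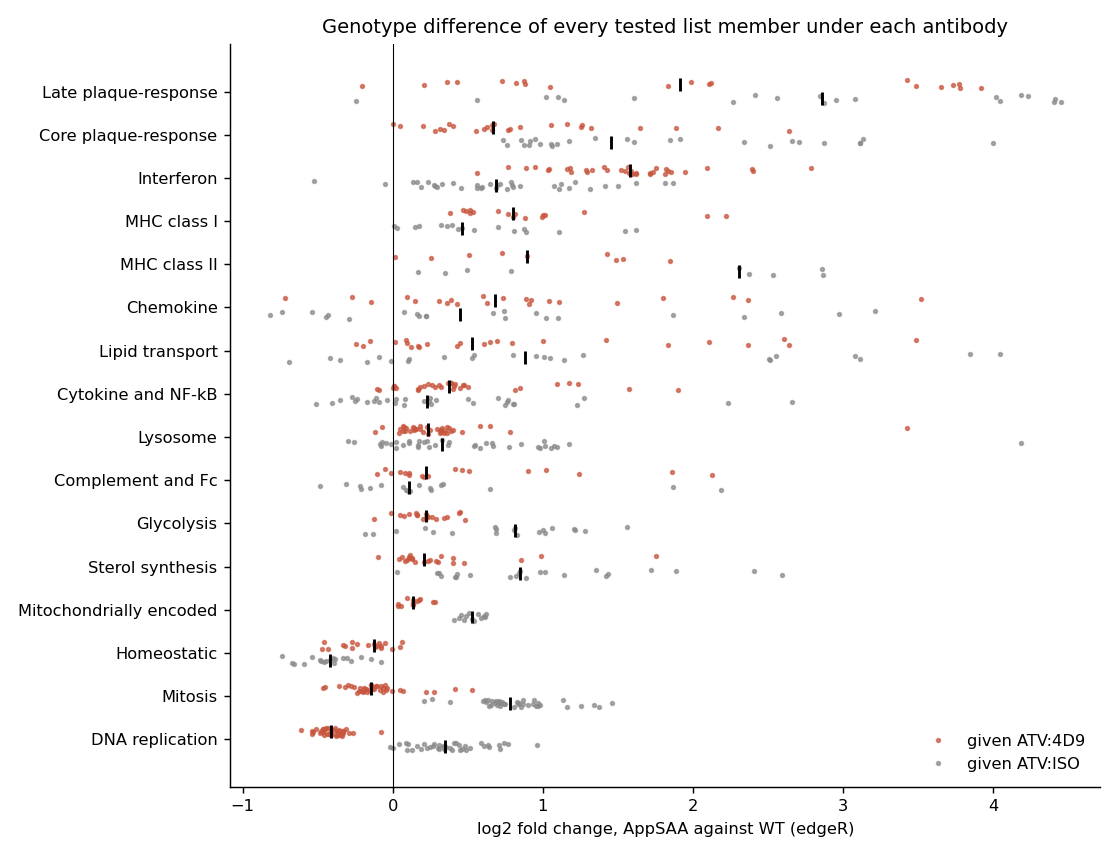
Log2 fold change of AppSAA against WT (horizontal axis, edgeR) of every tested member of 16 gene lists, in mice given ATV:4D9 (red) and ATV:ISO (grey). Each point is a gene and black bars are list medians. The interferon median was 1.58 against 0.69, the late plaque-response median 1.91 against 2.86, and the DNA replication median −0.41 against 0.35.

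To see where in the cell population the differences lay, the deposited coarse clusters, numbered 0 to 5 with no names, were compared. They were made from the same expression values, so shares and values within them describe the clusters and are no separate evidence. Cluster 1 held 9.24% to 16.4% of the cells of AppSAA mice and 0.331% to 0.465% of the cells of WT mice, which was 12 to 21 cells. Cluster 5 held 18.9% to 28.6% against 3.33% to 5.61%, and cluster 4 18.4% to 25.3% against 36.3% to 45.7%. Cluster 2 held 31.2% to 41.8% against 44.7% to 51.7%. The shares of these 4 clusters did not overlap between the genotypes, and those of clusters 0 and 3 did. Clusters 0 and 3 held 2.52% and 3.78% against 3.11% and 4.56%. In AppSAA mice cluster 5 held 48.2% of the UMIs of the interferon list, cluster 4 held 54.1% of the replication and 67.3% of the mitosis UMIs, and cluster 1 held 88.8% of the Gpnmb, 82.7% of the Spp1 and 54.7% of the Apoe UMIs.

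Within clusters the genotype difference of interferon genes was found in the clusters that are poor in them. In cluster 4 all 36 tested rose (median 1.58) and in cluster 2 all 33 did (median 1.25), against backgrounds of 6.44% and 4.6% of genes called higher and 3.35% and 2.79% called lower. In clusters 0 and 3, 13 and 19 of 34 rose, with backgrounds of 1.38% and 1.25% higher and 0.488% and 0.456% lower. In cluster 5 only 5 rose and 11 fell (median −0.11; backgrounds 7.27% and 7.39%). Isg15 there was 1704 ± 495 CPM in AppSAA and 2116 ± 347 CPM in WT mice (−0.33, adjusted p = 0.027), whereas in cluster 4 it was 339 ± 82.5 against 98.8 ± 33.5 CPM (1.80, SE 0.15, adjusted p = 1.1e-08). Ifi27l2a was an exception, with 1149 ± 109 against 308 ± 72.8 CPM in cluster 5 (1.92).

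Replication genes had another pattern, with the fall in cluster 5, where Hells stood lower than in cluster 4. All 40 fell within cluster 5 (median −0.79), while 0 of 40 were called lower in clusters 2 and 4. Hells was 59.2 ± 5.06 against 116 ± 10.1 CPM in cluster 5 (−0.97, SE 0.09, adjusted p = 1.3e-08) and 165 ± 9.20 against 178 ± 10.9 CPM in cluster 4 (−0.11, adjusted p = 0.57). Mitosis genes rose within cluster 4, 34 of 40 (median 0.44), and 17 of 31 fell within cluster 5. Top2a was 430.2 ± 28.5 against 327 ± 32.9 CPM in cluster 4 (0.40, adjusted p = 0.0036). With each mouse's sums rebuilt at equal cluster composition, 29 of 40 mitosis genes were called higher and 0 lower over all cells (median 0.29, with 631 of 14058 genes called higher), against 1 and 7 as sampled.

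Core plaque-response genes rose within each fitted cluster, by 11, 13, 13, 15 and 17 of 26 in clusters 0, 2, 3, 4 and 5. Apoe was 5965 ± 1175 against 1114 ± 358 CPM in cluster 5 (2.43, SE 0.15, adjusted p = 6.2e-12) and 1090 ± 522 against 631 ± 254 CPM in cluster 4 (0.77, adjusted p = 0.003). Spp1 was 125 ± 57.4 against 21.5 ± 10.3 CPM in cluster 5 (2.58) and was not called in cluster 0 (0.11, adjusted p = 0.96). Trem2 was called higher in cluster 5 alone of the 5 fitted (0.32, adjusted p = 0.018), and its log2 fold change was −0.03 to −0.00 in the other 4. P2ry12 was called lower in clusters 0, 2, 3 and 4, with cluster 5 at −0.20 (adjusted p = 0.17). Cluster 1 could not be fitted, since only 1 WT mouse had 20 or more cells in it. The sums at equal cluster composition nevertheless include its 12 to 21 cells of each WT mouse.

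**Figure D4:**
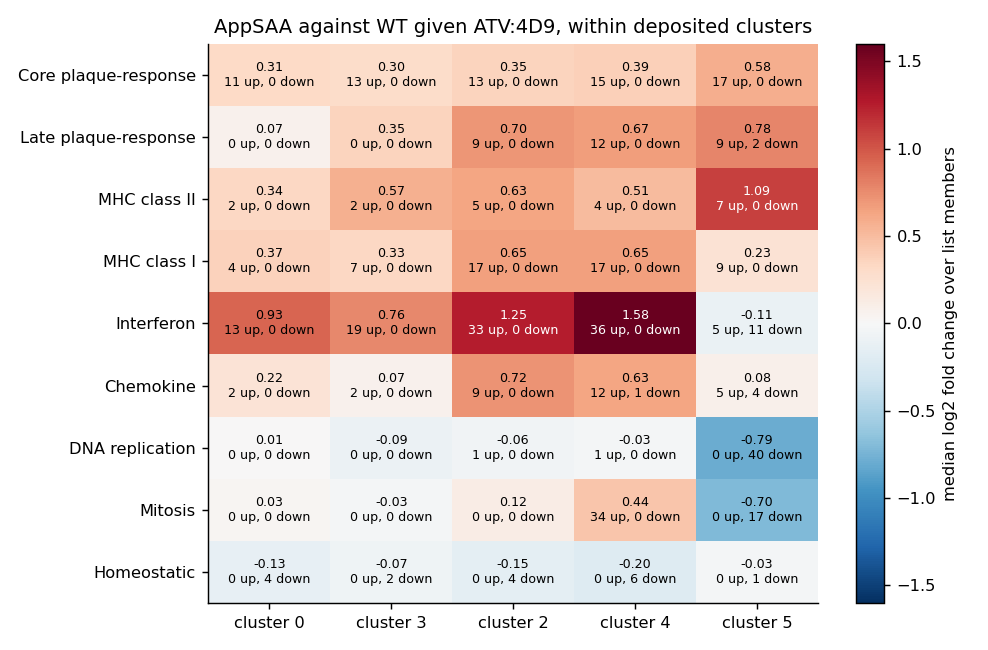
Median log2 fold change of AppSAA against WT in mice given ATV:4D9 (colour and upper number) and number of members called up or down (lower line) for 9 gene lists (rows) in 5 deposited clusters (columns). Interferon members rose in clusters 2 and 4 (33 and 36) and not as a set in cluster 5, where all 40 DNA replication members fell.

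The difference of each list's summed CPM was then split within each pool into a part from the shift in cluster shares and a part from the level within clusters. Shares here were of a mouse's UMIs and not of its cells, so RNA per cell enters them. Levels were scaled by whole-mouse TMM factors, 0.848 to 0.974 in AppSAA and 0.960 to 1.06 in WT mice. Level parts include this scaling, and that of nuclear oxidative phosphorylation genes was 11.7 percent of the WT sum. For interferon genes the parts were 66.4 ± 13.1 and 79.3 ± 29.1 percent of the WT sum (mean ± SD, n = 4 pools). For replication genes they were −21.3 ± 5.77 and −2.12 ± 3.06 percent, and with this scaling the share term was 91.0% of the summed difference. At equal cluster composition, which has no TMM, 30 of 40 replication genes were called lower (median −0.20). The median of all genes there was −0.07, and 2254 of 14058 were called lower. With each mouse's median also set equal, 15 replication genes were called lower (median −0.11). The scales differ, so the split and these counts cannot be compared directly. For mitosis genes the parts had opposite signs, −28.6 ± 9.88 and 17.4 ± 5.11 percent. The core plaque-response sum had 20.8 ± 7.55 and 34.4 ± 7.32 percent, MHC class I 17.1 ± 5.46 and 54.7 ± 12.6 percent, and class II 29.8 ± 12.6 and 61.8 ± 21.4 percent.

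**Figure D5:**
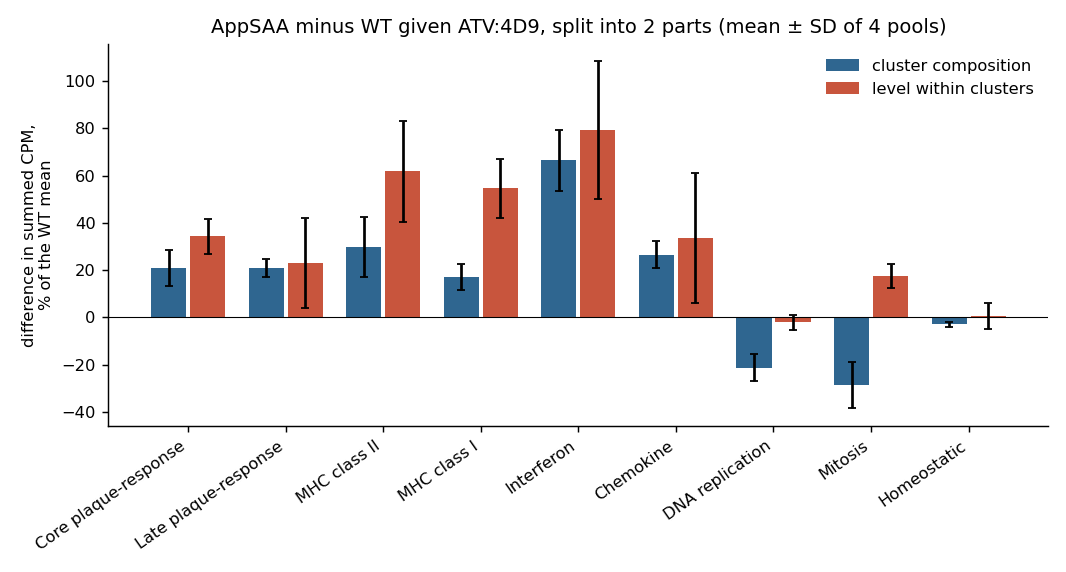
Difference in summed TMM-scaled CPM between AppSAA and WT mice given ATV:4D9, as percent of the WT mean (vertical axis), for 9 gene lists. It is split into cluster composition (each cluster's share of UMIs, blue) and level within clusters (red). Bars are means and lines SD over 4 pools. The interferon bars stood at 66.4 and 79.3, and the mitosis bars at −28.6 and 17.4.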

How the data were processed

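Cells from mouse cortex and hippocampus were multiplexed, sequenced from the 3′ end and, per the labels, counted with Cell Ranger 6.1.1 against mm10. The deposited matrix held UMI counts per gene and cell, and a second deposited table gave each cell's mouse, group, pool and clusters (at resolutions 0.2 and 0.4), with the percent of mitochondrial UMIs that the authors had computed. How doublets were treated is not given in the sources used here. Barcodes were shared by 2 or more pools in 543 cases (1089 cells).

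Counts were summed over all cells of a mouse for 19737 genes. With edgeR 4.0.16 (R 4.3.3, filterByExpr, TMM) the quasi-likelihood test was fitted to all 20 mice, with group and pool as terms, and p-values were adjusted by Benjamini-Hochberg over 14058 genes. The 4 AppSAA mice given 4D9 without the vehicle entered no contrast. They were part of this fit, of the fits within clusters and of most alternative fits. The labels name separate mice as replicates and state that each pool held 1 mouse of each group, and deviations of the AppSAA and WT mice of a pool correlated (0.359 to 0.607 over 4 pairs). Sums within a cluster used mice with 20 or more cells. The procedure was tested on simulated data.

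Members and gene lists were chosen with earlier results of these data known. Genes named were 30 fixed ones, the 10 largest rises and falls among called genes without overlap at a mean of 10 CPM or more, the called member with the largest rise and fall of each list, and the 5 largest interactions in each direction at that level, which made 89. Other genes, including those whose promoters are printed, were chosen after their values were seen. Some genes that the rule names are not reported here. Alternatives were DESeq2 1.42.0, limma 3.58.1 (voom), RLE size factors, no filter on low counts, UMI limits per cell and thinning. Others were per-cell CPM and equal cluster composition, each with a pseudocount of 1 and without TMM. The fit without pool and leaving out each mouse or pool completed them. The scaling without TMM and the equal medians were added after seeing the data.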

Additional observations from a re-analysis of the deposited data

Results flagged for a closer look

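In 182 groups of 4 mice tested for a mouse far from the other 3, 13 had one, and chance gives about 1 in 20. In AppSAA mice these were Tfrc in replicate 2 (16.6 CPM), Ldha (835 CPM) and Phgdh (301 CPM) in replicate 1, Hbb-bs in replicate 3 (282 CPM) and Xist in replicate 4 (6.69 CPM). In WT mice they were Clec7a (57.5 CPM) and Cxcl11 (30.3 CPM) in replicate 2, Spp1 in replicate 3 (39.9 CPM) and Xist in replicate 4 (6.39 CPM). Bank1 (21.5 CPM), Gimap6 (11.2 CPM), Phgdh (336 CPM) and Ptprc (251 CPM) were flagged in WT replicate 1. Both Xist values came from pool 4, which also held the mouse recorded as female. The AppSAA and WT males there held 667 and 523 Xist UMIs, against 22 or fewer in the other mice given ATV:4D9. The cause was not tested.

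The genotype difference under ATV:4D9 differed from that under ATV:ISO in 47 of the named genes (edgeR interaction, adjusted p under 0.05) and in 4284 genes in all. Of the 47, 18 were positive and 29 negative on the log2 scale. Among plaque-response, lipid and antigen presentation genes the interaction was −0.48 for Trem2, −0.51 for Tyrobp, −2.11 for Cst7, −1.79 for Itgax, −1.22 for Clec7a, −2.50 for Lpl, −0.54 for Axl, −1.43 for Cd74, −1.02 for H2-Aa, −1.24 for Fabp3, −0.38 for Hmgcs1 and 0.17 for Lpcat3. For interferon genes and chemokines it was 0.86 for Ifit3, 0.93 for Isg15, 0.93 for Ifi27l2a, 2.56 for Cxcl13, 1.80 for Cxcl11, −0.67 for Ccl3, −0.66 for Ccl4 and −0.58 for Tnf. For replication and mitosis genes it was −1.10 for Hells, −0.81 for Mcm5, −1.05 for Dtl, −1.09 for Mki67, −1.01 for Top2a and −0.84 for Ckap2l.

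For metabolic genes the interaction was −0.60 for Ldha, −0.35 for Slc2a1, −0.85 for Ndufa1, −0.33 for mt-Nd6 and −2.05 for Psat1, and for iron and stress genes −0.58 for Tfrc, 0.41 for Hmox1, 0.55 for Ddit3 and 1.97 for Hspa1b. For receptors and other genes it was 0.39 for Tmem119, 0.38 for Cx3cr1, 0.43 for Bank1, 0.43 for Crybb1, 0.81 for Treml2, 0.52 for Stab1, 0.29 for Csf3r, −1.39 for Cspg4, 1.57 for Tcp11l2, −2.50 for Etl4 and −2.25 for Baiap2l2. Xist had 6.86, and −0.08 without the WT ATV:ISO mouse recorded as female.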

How the results depend on the processing

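Called genes under ATV:4D9 numbered 3382 to 4339 when each mouse was left out in turn, 4472 with DESeq2, 4492 with RLE size factors and 4438 with limma-voom, against 4409. They numbered 2885 with equal cluster composition (1589 with equal medians as well), 7194 with library totals without TMM, 6815 with per-cell CPM and 2588 without pool 3. Without the replicate block there were 1661, all called in the same direction with it. Under ATV:ISO there were 811, 673 and 3960 with equal composition, with equal medians as well and without the block, and 6270 to 6969 leaving out a mouse, against 7166. The interaction had 74, 61 and 1285 in that order, 2283 without pool 3 and 2342 without pool 4, against 4284.

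Without the replicate block, replication members called lower were 24, mitosis members 4, and lysosome and cytokine members called higher 15 and 13, and 21 of 89 named genes lost their call. With equal composition, and with equal medians as well, the counts were 27 and 28 interferon, 17 and 17 core and 13 and 13 late plaque-response members higher, 14 and 6 homeostatic, 30 and 15 replication and 0 and 0 mitosis members lower, and 3 and 6 lysosome, 7 and 10 cytokine, and 7 and 7 chemokine higher. With library totals and per-cell CPM they were 17 and 17 homeostatic, 13 and 23 mitosis, and 17 and 18 lysosome. Mitosis members called lower were also 24 in cells of 1000 to 25000 UMIs, 11 with the compared mice alone, 3 without pool 3, and 4 to 8 when a mouse was left out, and lysosome members were 19 without pool 3. The causes were not tested.

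Signs turned with equal composition in Trem2 (−0.00166), Top2a (0.25), Atp6v0d2 (−0.16) and Klrb1c (−0.0128), and with equal medians as well in Mki67 (0.33), Top2a (0.34), Ckap2l (0.0204) and Atp6v0d2 (−0.0772). Hbb-bs turned to −0.20 without AppSAA replicate 3 and to −0.0808 without pool 3, and was up to 8.34 without another mouse. Of the other values of named genes 1957 kept their side of the threshold, 148 lost and 18 gained a call. Of the 1957, 10 values in 5 genes, called in neither fit, had the opposite sign: Tfrc (0.08 with equal medians), Mki67 (0.25 with equal composition), Tnf (−0.05 with per-cell CPM, −0.02 without pool 1), Psat1 (−0.06 with per-cell CPM and with library totals) and Xist (4 settings, up to 3.10). Counting depth was 41315872 UMIs or more in the 8 mice given ATV:4D9 and 17150296 or more in the 8 given ATV:ISO, and p-values rest on 4 mice a side.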
